A study of Mus musculus with 6 samples.

Results

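Neurexins and neuroligins are the cell-surface proteins that pair across the cleft of a synapse, and 5 of their genes were followed here in rod photoreceptors sorted from the mouse retina: the neurexins Nrxn2 and Nrxn3 and the neuroligins Nlgn1, Nlgn2 and Nlgn3. The 5 genes were taken by name from the 52143 genes of the deposited gene table, using the row on a main chromosome. Their 43 annotated transcripts were taken from the 136550 transcripts of the deposited transcript table. Newborn retinas were electroporated in vivo on postnatal day 0 and rods were sorted on postnatal day 10, with 3 libraries per group. The Jun shRNA group received a vector expressing a short hairpin RNA (shRNA) against Jun, a leucine-zipper subunit of the AP-1 transcription factor, and the control group received the pLKO.1-Scrambled vector. Each shRNA vector was given at 2.5 µg/µl in 0.4 µl. Both groups also received the Nrlp-EGFP vector at 1.5 µg/µl, in which the rod-active Nrl promoter drives the EGFP used for sorting. A single hairpin against Jun is named in the labels. The labels do not say whether libraries came from separate animals, and each p-value reflects library-to-library spread that may be partly technical.

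Neurexins sit mainly on the presynaptic membrane. Their genes use separate promoters to make long alpha forms and short beta forms, and several alternatively spliced sites, among them site 4, set which partners they bind. Neuroligins sit mainly on the postsynaptic membrane, carry an extracellular cholinesterase-like domain, and are spliced at site A and, in neuroligin 1, also at site B. Neuroligin 1 is known mainly from excitatory synapses, neuroligin 2 from inhibitory synapses, and neuroligin 3 from both. In the retina, rods release glutamate from ribbon synapses onto bipolar and horizontal cells, and these contacts form around the age at which the cells were collected.

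The libraries labelled Jun shRNA held 13211279 to 13998395 counts and the control libraries 32150086 to 105800769 counts, with control library 2 the deepest, so depth and group cannot be told apart. Jun itself stood at 1.80, 17.6 and 19.3 CPM (counts scaled to 1000000 per library) in the Jun shRNA libraries, against 6.46, 5.86 and 7.16 CPM in the control libraries, with a log2 fold change of 0.99 (SE 1.44, edgeR adjusted p = 0.764). Jun RNA was therefore lower in 1 of the 3 libraries labelled Jun shRNA and higher in the other two, against their label, and each direction given below is between libraries as labelled, with Jun shRNA libraries meaning the libraries labelled so. Rod markers were present in every library, but their summed level ranged from 29090 to 45882 CPM in Jun shRNA libraries and from 115169 to 123597 CPM in control libraries. Of the 14, 8 passed the test as lower, where 1.35% of all tested genes did, and 2 had positive log2 fold changes. These were Cnga1 (0.21, edgeR adjusted p = 0.76) and Gngt1 (1.01, edgeR adjusted p = 0.204). Gngt1 had 31308, 18331 and 33263 CPM in Jun shRNA libraries, most of their sums, against 20419, 6894 and 13854 CPM in control libraries. Cone markers summed to 2559 to 3322 CPM in Jun shRNA libraries and 3562 to 7028 CPM in control libraries, and 1 of 9 passed as lower. Bipolar markers summed to 1122 to 1828 CPM against 937 to 1106 CPM, amacrine and horizontal markers to 25.3 to 88.5 CPM against 22.8 to 96.1 CPM, and ganglion cell markers to 7.93 to 15.8 CPM against 3.42 to 76.1 CPM, Jun shRNA first in each case. Microglial markers summed to 1.74 to 5.66 CPM in Jun shRNA libraries and 823 to 1112 CPM in control libraries, and Müller glia markers to 155 to 361 CPM and 662 to 984 CPM. Of the 12 bipolar markers, all tested, 1 passed as higher and 1 as lower, where 0.32% and 1.35% of all tested genes did. With 1 library left out, the edgeR adjusted p ran from 0.0864 to 0.163 for the first, Prkca, and from 0.0402 to 0.0963 for the second, Sebox. Prkca, the protein kinase of rod bipolar cells, passed as higher with 184, 156 and 313 CPM in Jun shRNA libraries and 24.2, 7.94 and 16.1 CPM in control libraries (log2 fold change 3.76, SE 0.76, edgeR adjusted p = 0.0468). Sebox, a homeobox gene, passed as lower with 0.321, 0.466 and 0.489 CPM in Jun shRNA libraries and 91.1, 154 and 82.0 CPM in control libraries (log2 fold change -8.02, SE 1.13, edgeR adjusted p = 0.0124). Lhx1, a horizontal cell marker, and Sncg, a ganglion cell marker, were at 0 in all 3 Jun shRNA libraries and near 0 in the deeper control libraries, at no more than 0.0197 CPM for Lhx1 and 0.0831 CPM for Sncg. In bulk RNA of this kind, fewer cells of a type and less RNA per cell cannot be told apart, and the part of other cell types in the levels below was not tested.

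Several annotated stretches that differ between forms of these genes are shown here because the forms are compared below. The counts below were estimated for whole forms, which differ in other parts too, and reads over these stretches were not counted. Positions and exon sequences are from GENCODE vM21 and the GRCm38 genome, and capitals mark the alternative part. The Nlgn1 inserts lie on the minus strand, at chr3:25920178-25920237 for site A, a whole exon of 60 bases, and at chr3:25439865-25439891 for site B, the last 27 bases of an exon. The Nrxn3 site 4 exon of 90 bases lies on the plus strand at chr12:90199147-90199236. The Nrxn3-209 stretch, at chr12:89260482-89260601, gives the last 40 bases of an exon in lower case and the first 80 bases of the intron that this form retains in capitals.
Nlgn1 site A insert: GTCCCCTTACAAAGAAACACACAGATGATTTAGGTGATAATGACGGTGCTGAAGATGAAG
Nlgn1 site B insert: GTAACCGTTGGAGCAATTCAACCAAAG
Nrxn3 site 4 exon: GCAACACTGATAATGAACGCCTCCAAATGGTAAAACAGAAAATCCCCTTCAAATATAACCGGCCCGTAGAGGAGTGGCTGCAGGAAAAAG
Nrxn3-209 exon end and retained intron: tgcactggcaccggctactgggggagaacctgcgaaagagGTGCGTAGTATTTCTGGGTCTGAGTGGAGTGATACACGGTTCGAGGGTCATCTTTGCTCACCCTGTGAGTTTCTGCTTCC

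At the gene level, Nrxn3 was the one member of 4 tested whose groups did not overlap, where 28.3% of all tested genes had no overlap. Every Jun shRNA library was above every control library, as for 12.6% of all tested genes. Nrxn3 (ENSMUSG00000066392, chr12:88722876-90334935, plus strand) had 161, 164 and 271 CPM in Jun shRNA libraries, against 8.73, 109 and 6.81 CPM in control libraries. The Jun shRNA libraries lay close together, while control library 2 stood far above the other control libraries and came within reach of the Jun shRNA group. The means were 199 ± 62.5 CPM and 41.6 ± 58.7 CPM (SD, n = 3 each). The log2 fold change of Nrxn3 was 2.26 (SE 1.09, edgeR adjusted p = 0.331, unadjusted p = 0.0680), which did not pass the threshold of 0.05. Without control library 2 the log2 fold change was 4.68, with an edgeR adjusted p of 0.0972. Over all alternatives the adjusted p of Nrxn3 ran from 0.0972 to 0.520 and its log2 fold change from 1.72 to 4.68.

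Nlgn1, the neuroligin of excitatory synapses (ENSMUSG00000063887, chr3:25426215-26332460, minus strand), had 75.9, 2.51 and 27.3 CPM in Jun shRNA libraries, against 0.450, 36.4 and 2.71 CPM in control libraries. One library of each group was near 2 to 3 CPM, and the groups overlapped. Its log2 fold change was 1.42 (SE 1.77, edgeR adjusted p = 0.723), and it was 0.14 without Jun shRNA library 1 and 4.47 without control library 2. Without control library 1 or control library 3 it was 0.81 or 0.91.

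Nlgn2, the neuroligin of inhibitory synapses (ENSMUSG00000051790, chr11:69823122-69837784, minus strand), had 7.31, 0 and 9.37 CPM in Jun shRNA libraries, against 0.326, 0 and 5.03 CPM in control libraries. It had 0 counts in 1 library of each group, among them the deepest library of the series. Its log2 fold change was 1.63 (SE 2.40, edgeR adjusted p = 0.766), and it was 5.13 without control library 3, 1.00 without Jun shRNA library 3 and 1.01 without control library 2.

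Nlgn3 (ENSMUSG00000031302, chrX:101299168-101325963, plus strand) had 0.0494, 33.9 and 32.0 CPM in Jun shRNA libraries, against 0.00976, 12.4 and 0.220 CPM in control libraries. Both groups held libraries under 1 CPM next to libraries above 10 CPM, and the groups overlapped. The log2 fold change of Nlgn3 was 2.38 (SE 2.50, edgeR adjusted p = 0.662), and 7.58 without control library 2.

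Nrxn2 (ENSMUSG00000033768, chr19:6418731-6544169, plus strand) had 0.135, 0.0319 and 6.90 CPM in Jun shRNA libraries, against 0.154, 0.410 and 8.81 CPM in control libraries. In each group the library numbered 3 held nearly all of it, and the groups overlapped. Nrxn2 did not pass the filter on low counts. Fitted without that filter its log2 fold change was -0.58 (SE 2.34, edgeR adjusted p = 0.899), but it was 0.10 without Jun shRNA library 1 and 0.14 without Jun shRNA library 2. The gene table also lists a copy of Nrxn2 on a patch sequence with equal counts in all 6 libraries (within 1e-06), so the counts given for the main-chromosome row are uncertain.

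**Figure D1:**
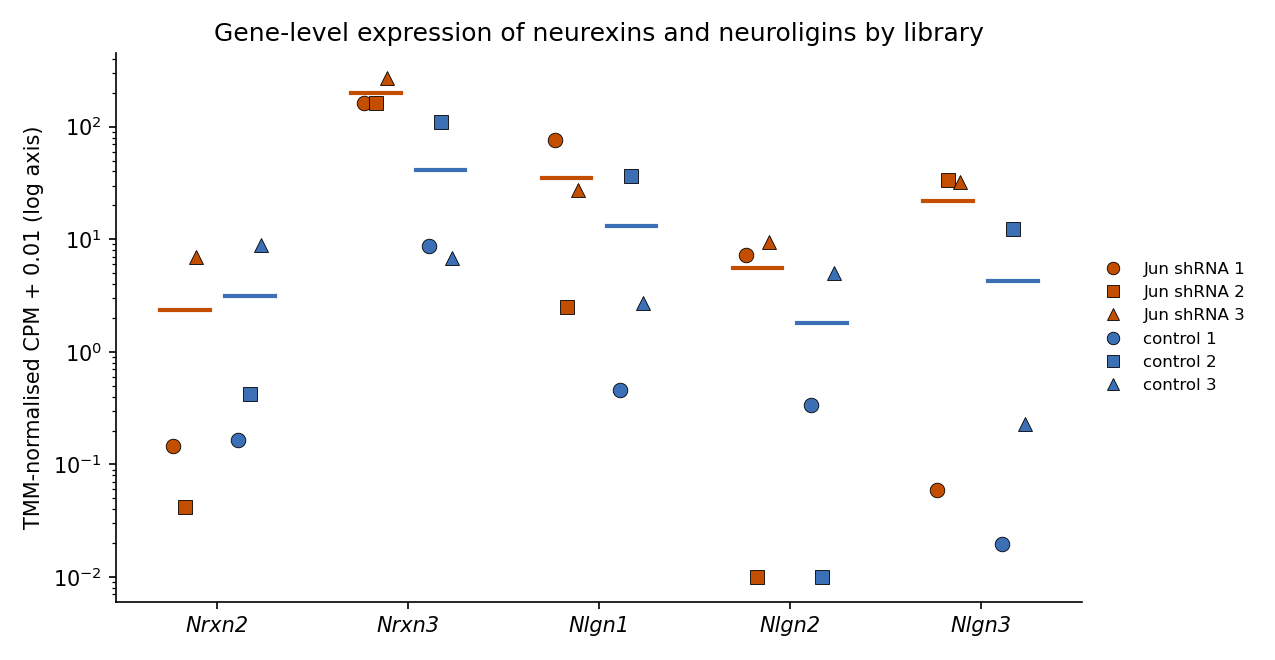
TMM-normalised CPM plus 0.01 of the 5 genes on a log axis, with Jun shRNA libraries left of control libraries. Each symbol is 1 library and each bar the mean of 3. Nrxn3 is at 161 to 271 CPM in the Jun shRNA libraries and at 6.81 to 109 CPM in the control libraries, and the groups of the other genes overlap.

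Of the 5 genes, 4 were tested and 0 passed with edgeR's quasi-likelihood test, where 1.67% of all 12815 tested genes passed (0.32% as higher and 1.35% as lower). At an unadjusted p under 0.05 the count was also 0 of 4, where 16.8% of all tested genes had such a p. DESeq2 gave an adjusted p to 2 of the genes and limma-voom tested 4, and neither called 1. The groups did not overlap for 1 of the 4 genes, against 28.3% of all tested genes and 12.6% with Jun shRNA libraries higher. All 4 fitted log2 fold changes were positive, with standard errors from 1.09 to 2.50, while the median over all tested genes was -0.12.

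Levels between genes were compared per length, as transcript counts per kilobase of annotated length scaled to 1000000 per library (TPM). Nrxn3 had the highest mean of the 5 in both groups, at 72.8 ± 17 TPM in Jun shRNA libraries and 12.5 ± 18 TPM in control libraries (SD, n = 3 each). Control library 2 carried most of that control mean, with 33.3 TPM against 2.42 and 1.83 TPM in control libraries 1 and 3, and in control library 3 Nrxn2 stood above Nrxn3 at 2.43 TPM. Nlgn3 averaged 8.74 ± 7.88 and 1.27 ± 2.14 TPM, Nlgn1 6.59 ± 7.06 and 2.11 ± 3.27, Nlgn2 1.70 ± 1.49 and 0.436 ± 0.685, and Nrxn2 1.13 ± 1.87 and 0.87 ± 1.35, Jun shRNA before control for each gene. In Jun shRNA libraries Nrxn3 stood above the other genes by more than their spread, and the other 4 did not differ in level beyond theirs. In control libraries no neighbours in the order differed beyond their spread. The most abundant neuroligin changed from library to library: Nlgn1 took 86.1% of the neuroligin level in Jun shRNA library 1, while Nlgn3 took 96.3% and 58.7% in Jun shRNA libraries 2 and 3. This Nlgn3 level came mostly from a short noncoding form, Nlgn3-205 of 747 bases, and not from coding forms. In the control libraries Nlgn2 took 73.5% in library 3 and Nlgn1 took 61.2% in library 2. In control library 1 Nlgn2 took 52.7%, at 0.083 TPM against 0.0705 TPM of Nlgn1. That share rests on 13 Nlgn2 and 26 Nlgn1 transcript counts. Exact two-sided permutation tests of the neuroligin shares gave p from 0.4 to 1, where 0.1 is the smallest that 3 against 3 libraries allow.

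The transcript table showed which forms made up these levels. Of the 43 transcripts, 23 had at least 1 count after rounding in some library and 7 passed the filter on low counts. None of the 7 passed at the threshold (0 of 7 with edgeR), where 0.662% of all 20706 tested transcripts passed. At an unadjusted p under 0.05 there were 3 of 7, against 15.5% of all tested transcripts. The same 3 had groups that did not overlap, against 30% of all tested transcripts and 12.4% with Jun shRNA higher. They were Nrxn3-209, Nrxn3-208 and Nlgn1-205.

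Nrxn3-209 was the form with the smallest p. It begins at the annotated start of the gene, has 8 exons, spans chr12:88722876-89261571, and is annotated as retaining an intron, with 1050 of its 4086 bases inside the intron shown above. It had 809, 2285 and 2002 counts in Jun shRNA libraries, against 24.9, 96.7 and 30.3 counts in the deeper control libraries. On the CPM scale these were 52.0, 124 and 122 in Jun shRNA libraries, against 0.770, 1.34 and 1.15 in control libraries. The lowest Jun shRNA library was thus far above the highest control library, and control library 2 did not stand apart for this form. The log2 fold change of Nrxn3-209 was 6.50 (SE 1.15, edgeR adjusted p = 0.0616, unadjusted p = 0.000583), which missed the threshold. It passed with DESeq2 (adjusted p = 0.000403), which called 15.6% of the transcripts it tested, and with limma-voom (adjusted p = 0.0204), which called 7.93%. It also passed with edgeR and no filter on low counts (adjusted p = 0.0341, 1.43% called) and with edgeR and at least 10 counts in every library of 1 group (adjusted p = 0.0293, 11.4% called). With 1 library left out its log2 fold change stayed between 6.25 and 6.83 and its edgeR adjusted p between 0.1 and 0.238.

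Nrxn3-209 took 24.8%, 76.9% and 35% of all Nrxn3 transcript counts in Jun shRNA libraries, against 7.53%, 1.1% and 13% in control libraries (exact two-sided permutation p = 0.1, the smallest possible). The groups were already apart in the counts of this form, so the permutation p adds no separate support. The 95% Clopper-Pearson intervals, which cover counting error only, ran from 23.3% to 26.3% for Jun shRNA library 1, the lowest of that group, and from 8.9% to 17.9% for control library 3, the highest of its group. Transcripts annotated as retained introns were also a larger share of the counts of all protein-coding genes, at 7.99%, 9.63% and 7.84% in Jun shRNA libraries, against 2.78%, 3.56% and 3.35% in control libraries. The part of this series-wide difference in the Nrxn3-209 counts was not tested. Another retained-intron form of Nrxn3, Nrxn3-204, with 4 exons, did not share this pattern. It had 197, 46.8 and 183 counts in Jun shRNA libraries, against 0.918, 3285 and 35.4 counts in control libraries. Its log2 fold change was -0.83 (SE 2.17, edgeR adjusted p = 0.898), and it was 3.64 without control library 2 and 0.06 with upper quartile scaling.

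Nrxn3-208 is annotated as a target of nonsense-mediated decay, the pathway that degrades RNAs with an early stop codon, and its open reading frame is 88.5% as long as that of the longest coding form. It had 663, 55 and 437 counts in Jun shRNA libraries, against 0, 9.8 and 1.12 counts in control libraries. Jun shRNA library 2 was the lowest of its group but above every control library. Its log2 fold change was 8.52 (SE 2.45, edgeR adjusted p = 0.117). It passed with DESeq2 (adjusted p = 0.000933), with limma-voom (adjusted p = 0.0324) and with edgeR and the 10-count filter (adjusted p = 0.0429), and it missed the threshold with edgeR in the other alternatives. The control counts were near 0, and the log2 fold change ran from 7.92 to 9.93 over the alternatives.

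Nrxn3-205, the full-length alpha-type form with a coding sequence of 4713 bases, had 1598, 207 and 3093 counts in Jun shRNA libraries, against 178, 4559 and 165 counts in control libraries. In CPM it stood at 103, 11.2 and 188 in Jun shRNA libraries, against 5.50, 63.3 and 6.29 in control libraries, and the groups overlapped. Its log2 fold change was 2.01 (SE 1.42, edgeR adjusted p = 0.579), and 4.06 without control library 2 and 1.25 without Jun shRNA library 3. Forms that begin further inside the gene each appeared in 1 library. Nrxn3-201 had 800 counts in control library 2, Nrxn3-202 had 377 counts in Jun shRNA library 2, and Nrxn3-203 had 125 counts in control library 1. Nrxn3-202 and Nrxn3-203 share the start at chr12:89812483 that gives the short coding forms. The site 4 exon shown above is in 4 of these 5 coding and decay forms and absent from Nrxn3-203. Forms with this exon therefore took 100% of the counts of these 5 in every library but control library 1, where the share was 58.8%. Nrxn3-203 also differs from Nrxn3-205 in its start. The share thus follows how counts were assigned to whole forms, and reads over the exon were not counted.

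**Figure D2:**
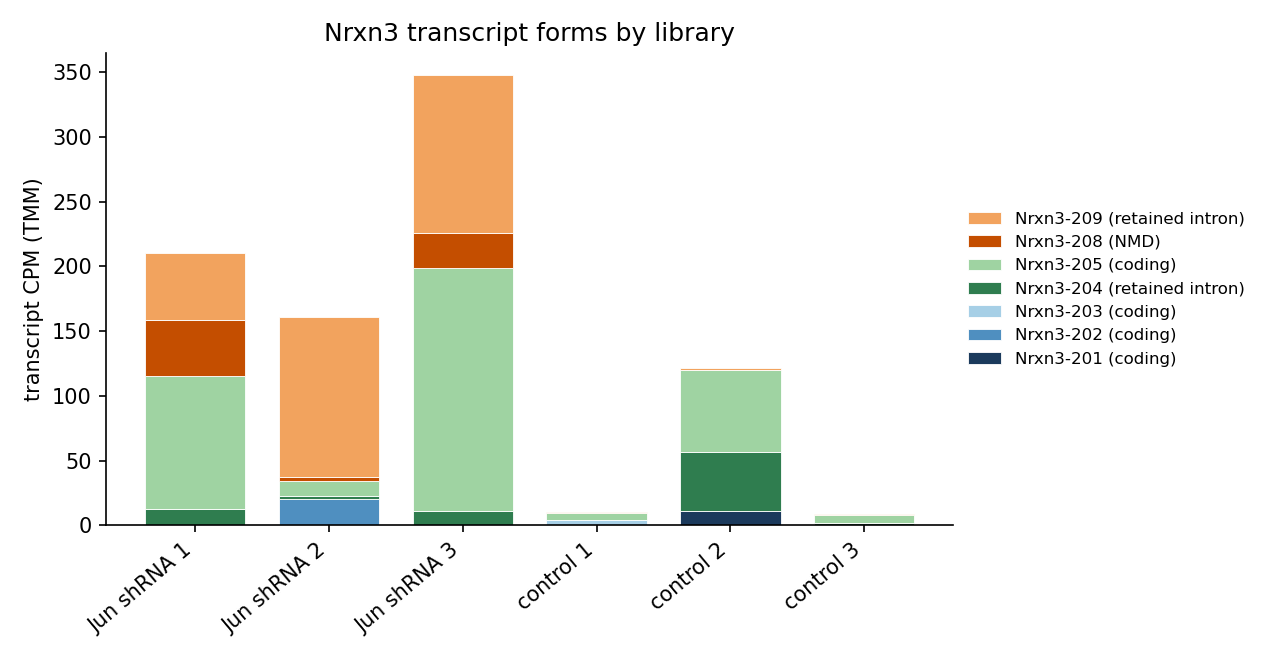
Nrxn3 transcript forms in each library, as stacked TMM-normalised transcript CPM on a linear axis, Jun shRNA libraries at the left. Nrxn3-209 is at 52.0 to 124 CPM in Jun shRNA libraries and at 0.770 to 1.34 CPM in control libraries, and Nrxn3-204 forms a large band in control library 2.

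**Figure D3:**
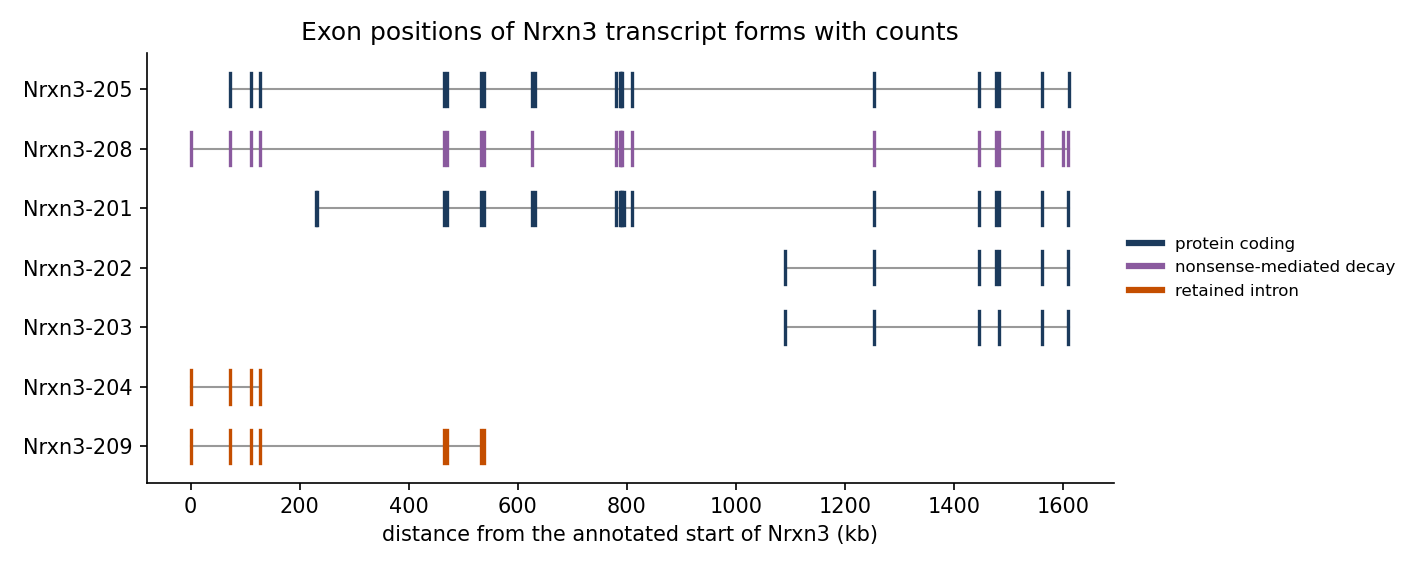
Exon positions of the 7 Nrxn3 forms with the most counts, against distance in kb from the annotated start of the gene, coloured by annotated type. Nrxn3-204 and Nrxn3-209 end before the middle of the 1612 kb gene, Nrxn3-202 and Nrxn3-203 begin past it, and Nrxn3-205 and Nrxn3-208 cover most of it.

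A form was counted as full-length where it is annotated as protein-coding with a coding sequence at least 80% as long as the longest of the gene. By this measure full-length forms held 48.9%, 6.96% and 54.1% of Nrxn3 transcript counts in Jun shRNA libraries, against 53.9%, 52.1% and 71.2% in control libraries. Jun shRNA library 2 was far below the other 5, which ran from 48.9% to 71.2%, with control library 3 the highest. The means were 36.7 ± 25.9% and 59.1 ± 10.6% (SD, n = 3 each, exact two-sided permutation p = 0.3), a difference of -22.4 percentage points that was -7.54 without Jun shRNA library 2 and -8.88 when counts were taken per kilobase. Shorter coding forms held 0%, 12.7% and 0% of Nrxn3 counts in Jun shRNA libraries, against 37.7%, 9.14% and 0% in control libraries (exact p = 0.7). Forms that are not annotated as protein-coding held the rest, at 51.1%, 80.3% and 45.9% in Jun shRNA libraries, against 8.37%, 38.8% and 28.8% in control libraries. For these the groups did not overlap, with means of 59.1 ± 18.6% and 25.3 ± 15.5% (exact two-sided permutation p = 0.1, the smallest possible). Retained-intron transcripts of all protein-coding genes also held a larger share in Jun shRNA libraries, with means of 8.48% against 3.23%. The part of that series-wide difference in the Nrxn3 shares was not tested.

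Nlgn1 was counted mainly in full-length coding forms that differ by the site A and site B inserts. Nlgn1-205, which carries both, had 1377, 71.1 and 102 counts in Jun shRNA libraries, against 26, 23.2 and 9.08 counts in control libraries. In CPM these were 88.5, 3.85 and 6.21 in Jun shRNA libraries, against 0.804, 0.322 and 0.346 in control libraries, so that the groups did not overlap and Jun shRNA library 1 stood far above the rest. Its log2 fold change was 6.06 (SE 2.03, edgeR adjusted p = 0.178), and 3.35 without Jun shRNA library 1, with adjusted p from 0.0740 to 0.463 over the alternatives. Nlgn1-203, which lacks both inserts, had 92.4, 0 and 0 counts in Jun shRNA libraries, against 0, 1105 and 0 counts in control libraries. Nlgn1-202, which lacks them too, had 0, 0 and 195 counts in Jun shRNA libraries, against 0, 104 and 0 counts in control libraries. The share of coding counts assigned to forms with both inserts was thus 93.7%, 100% and 34.4% in Jun shRNA libraries, against 100% and 1.88% in control libraries 1 and 2. It is a share between whole forms, and reads over the inserts were not counted. The 100% of control library 1 rests on 26 coding counts, with a lower 95% Clopper-Pearson bound of 86.8%. No share was formed for control library 3, which had 9 coding counts, and the difference was not tested. Full-length forms held 100% of Nlgn1 counts in every library but control library 3, where they held 24.5% of 37 counts and the retained-intron form Nlgn1-204 the rest.

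Nlgn2 and Nlgn3 had few transcript counts, and for them too no share was formed where a library had under 20. Nlgn2-201, a full-length form, had 118, 0 and 150 counts in Jun shRNA libraries, against 13, 0 and 139 counts in control libraries (log2 fold change 1.55, SE 2.61, edgeR adjusted p = 0.835). It made up nearly all of Nlgn2 wherever Nlgn2 was counted. Nlgn3-205, a noncoding form of 747 bases near the start of the gene, had 0, 115 and 90 counts in Jun shRNA libraries, against 0, 183 and 1.06 counts in control libraries (log2 fold change 2.17, SE 2.53, edgeR adjusted p = 0.752). It held 90.1% and 86.7% of Nlgn3 transcript counts in Jun shRNA libraries 2 and 3 and 86.2% in control library 2, the libraries with at least 100 such counts. Full-length coding forms of Nlgn3 had 12.7 counts in Jun shRNA library 2, 13.8 in Jun shRNA library 3 and 29.4 in control library 2. For Nrxn2, all 4 full-length forms were listed at 0 in every library. Its counts fell mostly on Nrxn2-210, a retained-intron form with 55 counts in Jun shRNA library 3 and 0 elsewhere, on Nrxn2-213, a noncoding form with 32.8 counts in control library 3, and on Nrxn2-207, a retained-intron form with at most 16.2 counts. The shorter coding form Nrxn2-202 had 0 counts in all Jun shRNA libraries, against 2.17, 2.22 and 1.67 counts in the deeper control libraries.

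**Figure D4:**
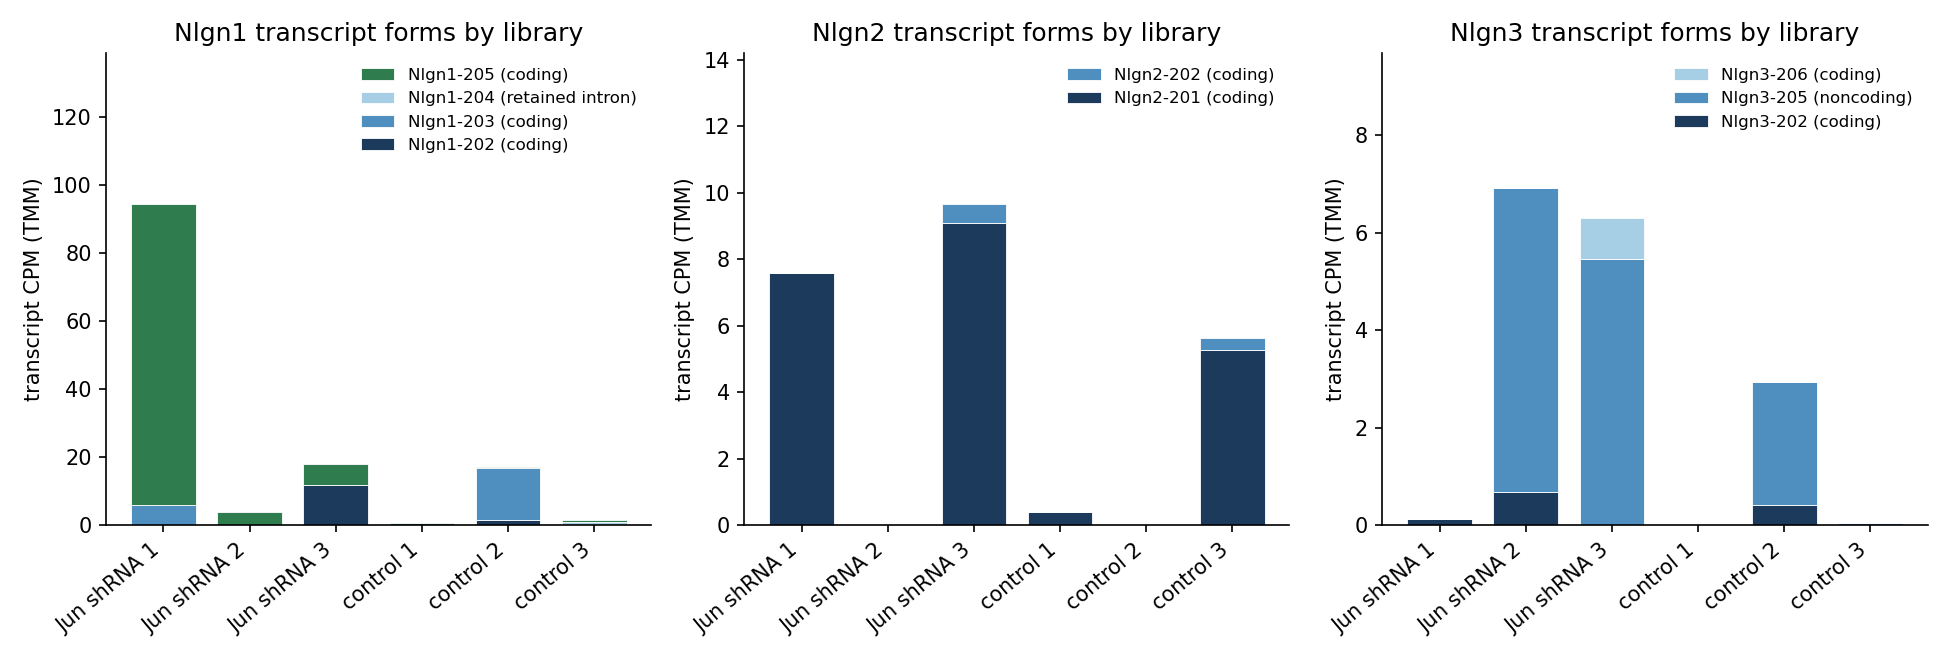
Transcript forms of Nlgn1, Nlgn2 and Nlgn3 in each library, as stacked TMM-normalised transcript CPM on linear axes with their own scales, Jun shRNA libraries at the left. Nlgn1-205 reaches 88.5 CPM in Jun shRNA library 1, and Nlgn3 consists mostly of the noncoding Nlgn3-205 in the libraries where it was counted.

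The gene counts are not sums of the transcript counts, and the gap was large for some members. The gene count of Nlgn3 was 4.71 times its transcript sum in Jun shRNA libraries 2 and 3 and 5.25 times in control library 2. That of Nrxn2 was 6.41 times its transcript sum in control library 3, and that of Nlgn1 was 2.66 times in control library 2. For Nrxn3 the ratio lay between 0.725 and 1.13 in all 6 libraries, and a fit on transcript sums gave it a log2 fold change of 2.74 (edgeR adjusted p = 0.226). The same fit gave Nlgn1 a log2 fold change of 2.97 (edgeR adjusted p = 0.419), against 1.42 on the gene counts.

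The members are of very different length. Nrxn3 spans 1612 kb and Nlgn1 906 kb, while Nrxn2 spans 125 kb, Nlgn3 26.8 kb and Nlgn2 14.7 kb. Among all tested genes, the 642 that span 200 kb or more had a median log2 fold change of 0.70, with 7 passing as higher (1.09%) and 0 as lower by edgeR. The 2636 genes of 50 to 200 kb had a median of 0.34 and the 9355 genes under 50 kb a median of -0.30. The 2.26 of Nrxn3 and the 1.42 of Nlgn1 thus lie in a class whose median was itself above 0. Another scaling moved the median of all genes to 0.03 (median of ratios), 0.27 (upper quartile) or 0.38 (library totals), and the under-50 kb median then became 0.09 with upper quartile scaling and 0.20 with library totals.

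Start-site windows were read because the hairpin targets an AP-1 factor and Nrl drives rod genes. RefSeq windows of 300 bases, from 250 before to 50 after a gene start on GRCm38.p6, were found for 3 of the 5 members, 6 windows in all. Of these, 3 belong to Nrxn3, and they are shown because the Nrxn3 forms counted above begin at different starts. The first, chr12:88794254-88794553, ends just past the start of Nrxn3-205, the second, chr12:88953140-88953439, lies at the start of Nrxn3-201, and the third, chr12:89812233-89812532, at the start of Nrxn3-202 and Nrxn3-203. All are on the plus strand, and capitals mark a motif match.
Nrxn3 window 1: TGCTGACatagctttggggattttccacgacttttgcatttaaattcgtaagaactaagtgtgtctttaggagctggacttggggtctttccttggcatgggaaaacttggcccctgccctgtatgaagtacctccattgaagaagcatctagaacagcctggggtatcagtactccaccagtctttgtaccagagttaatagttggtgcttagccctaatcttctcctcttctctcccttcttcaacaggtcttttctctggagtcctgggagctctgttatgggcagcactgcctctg
Nrxn3 window 2: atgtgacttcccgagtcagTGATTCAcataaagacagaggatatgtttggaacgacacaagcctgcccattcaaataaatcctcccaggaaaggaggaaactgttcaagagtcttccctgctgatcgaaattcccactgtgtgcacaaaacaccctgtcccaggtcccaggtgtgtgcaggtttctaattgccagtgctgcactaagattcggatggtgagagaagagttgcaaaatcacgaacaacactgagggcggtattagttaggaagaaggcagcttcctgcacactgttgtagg
Nrxn3 window 3: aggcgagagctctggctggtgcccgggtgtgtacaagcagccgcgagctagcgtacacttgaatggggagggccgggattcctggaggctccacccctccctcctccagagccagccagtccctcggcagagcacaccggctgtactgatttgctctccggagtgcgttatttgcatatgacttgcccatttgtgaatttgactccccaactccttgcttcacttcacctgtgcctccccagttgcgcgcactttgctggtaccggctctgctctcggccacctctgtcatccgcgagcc

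The AP-1 motif TGANTCA was matched once, at base 20 of window 2, and is held by 7.81% of all 32851 RefSeq windows. The NRL motif TGCTGAC was matched once, at base 1 of window 1, and is held by 4.67% of windows. The cyclic AMP response element TGACGTCA, held by 1.79%, and the CRX motif TAATCC, held by 7.06%, were in none of the 6 windows. Both strands were searched and the motifs do not overlap each other in these windows. A match describes the letters alone. The start of Nrxn3-209, the form with the smallest p, lies in none of the 3 Nrxn3 windows.

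Partners of the members were read from 6 lists with 104 genes, of which 71 were tested. Of these, 0 passed as higher and 1 as lower (1.41%) with edgeR, against 0.32% and 1.35% of all tested genes. At an unadjusted p under 0.05 there were 13 (18.3%, against 16.8%). The median log2 fold change over the 71 was 0.22, beside -0.12 over all tested genes.

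The total of 1 became 0 with each of the other scalings, and was from 0 to 1 with 1 library left out. The list of neuroligin inhibitors and proteases had 7 of 8 members tested, with 0 higher and 1 lower and a median of 0.14.

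Among the other ligands of neurexins, 10 of 24 were tested and 0 passed in either direction, with a median log2 fold change of -0.07. Lrrtm2, a postsynaptic leucine-rich ligand, had 0.129, 0 and 0.308 CPM in Jun shRNA libraries, against 44.7, 25.1 and 53.6 CPM in control libraries. The groups were far apart, yet the log2 fold change of -8.03 (SE 1.92) had an edgeR adjusted p of 0.0700; with DESeq2 the adjusted p was 7.22e-07 and with limma-voom 0.0176. Igsf21, a ligand at inhibitory synapses, had 0.837, 0.836 and 0.553 CPM in Jun shRNA libraries, against 1.48, 3.27 and 21.3 CPM in control libraries (edgeR adjusted p = 0.317). Dag1, which encodes dystroglycan, had 1.54, 28.1 and 0.0688 CPM in Jun shRNA libraries, against 1.29, 1.54 and 0.410 CPM in control libraries (edgeR adjusted p = 0.462), and its log2 fold change of 3.20 was -0.35 without Jun shRNA library 2.

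On the presynaptic side, 11 of 16 intracellular partners were tested and 0 passed in either direction, with a median log2 fold change of -0.77. Cask, a kinase-like scaffold that binds the neurexin tail, had 12.4, 7.27 and 17.3 CPM in Jun shRNA libraries, against 300, 2.49 and 1.09 CPM in control libraries. Control library 1 alone was high, and the log2 fold change of -3.04 (edgeR adjusted p = 0.431) was 2.73 without it. Sdcbp, which encodes syntenin, had 307, 12.7 and 24.8 CPM in Jun shRNA libraries, against 454, 258 and 289 CPM in control libraries (edgeR adjusted p = 0.490), and it passed without Jun shRNA library 1 (log2 fold change -4.18, adjusted p = 0.0486). Ppfia2, a liprin of the active zone, had 288, 111 and 282 CPM in Jun shRNA libraries, against 107, 107 and 73.8 CPM in control libraries (log2 fold change 1.24, edgeR adjusted p = 0.319).

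On the postsynaptic side, 16 of 20 scaffolds were tested and 0 passed in either direction. Their median log2 fold change was 1.74, and 13 of the 16 were positive, where 47.9% of all tested genes and 63.9% of those spanning 200 kb or more were positive. Dlg1, a scaffold of the PSD-95 family, had 158, 58.6 and 153 CPM in Jun shRNA libraries, against 19.4, 42.2 and 42.0 CPM in control libraries (log2 fold change 1.84, edgeR adjusted p = 0.290). Dlgap4, a postsynaptic scaffold, lay the other way from Dlg1, with 0.240, 0.346 and 2.32 CPM in Jun shRNA libraries, against 42.1, 29.2 and 40.1 CPM in control libraries (log2 fold change -5.26, edgeR adjusted p = 0.139). Its adjusted p was 0.000535 with DESeq2 and 0.0379 with limma-voom, and 0.152 to 0.266 by edgeR with 1 library left out.

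RNA-binding proteins that regulate splicing of neurexins and other neuronal genes had 12 of 16 members tested and 0 called, with a median log2 fold change of 0.86. Celf1 had 72.0, 63.6 and 58.3 CPM in Jun shRNA libraries, against 5.21, 8.54 and 15.4 CPM in control libraries (log2 fold change 2.73, edgeR adjusted p = 0.236). A copy of Celf1 on a patch sequence is also listed, so its counts may be uncertain, like those of Nrxn2. Srsf11 had 227, 203 and 225 CPM in Jun shRNA libraries, against 101, 91.0 and 45.0 CPM in control libraries (log2 fold change 1.47, edgeR adjusted p = 0.239). The groups did not overlap for 3 of the 12 tested genes of this list, Celf1 and Srsf11 among them, against 28.3% of all tested genes. Ptbp1, a repressor of neuronal exons, had 0.668, 0.0525 and 0.470 CPM in Jun shRNA libraries, against 6.79, 89.0 and 0.140 CPM in control libraries (edgeR adjusted p = 0.228), and its groups overlapped.

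Other adhesion proteins of the photoreceptor synapse and their partners had 15 of 20 members tested and 0 called, with a median log2 fold change of -0.46. Cacna2d1, a calcium channel subunit, had 5.59, 19.1 and 23.7 CPM in Jun shRNA libraries, against 0.0899, 0.0392 and 0.0446 CPM in control libraries (log2 fold change 8.12, SE 1.89, edgeR adjusted p = 0.0644). Its adjusted p was 5.84e-09 with DESeq2 and 0.023 with limma-voom, and 0.129 to 0.215 by edgeR with 1 library left out. Ptprd, a receptor tyrosine phosphatase that organises synapses, had 121, 344 and 215 CPM in Jun shRNA libraries, against 39.9, 6.03 and 53.1 CPM in control libraries (log2 fold change 2.78, edgeR adjusted p = 0.160). Lrit2, a leucine-rich membrane protein, had 68.8, 61.6 and 210 CPM in Jun shRNA libraries, against 459, 538 and 272 CPM in control libraries (log2 fold change -1.90, edgeR adjusted p = 0.162). The groups did not overlap for 5 of the 15 tested genes of this list, these 3 among them, against 28.3% of all tested genes. By counts at the threshold, limma-voom called 4 of the 71 tested genes of the 6 lists, and DESeq2 called 12 of the 81 to which it gave an adjusted p, where DESeq2 called 12.9% of all genes and limma-voom 3.45%. The edgeR count was 2 without the filter on low counts (2.23% of all genes) and 3 with the 10-count filter (5.07%), and limma-trend called 4 with 0.5 added to the deposited signal (4.8%) and 2 with 2 added (4.32%).

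**Figure D5:**
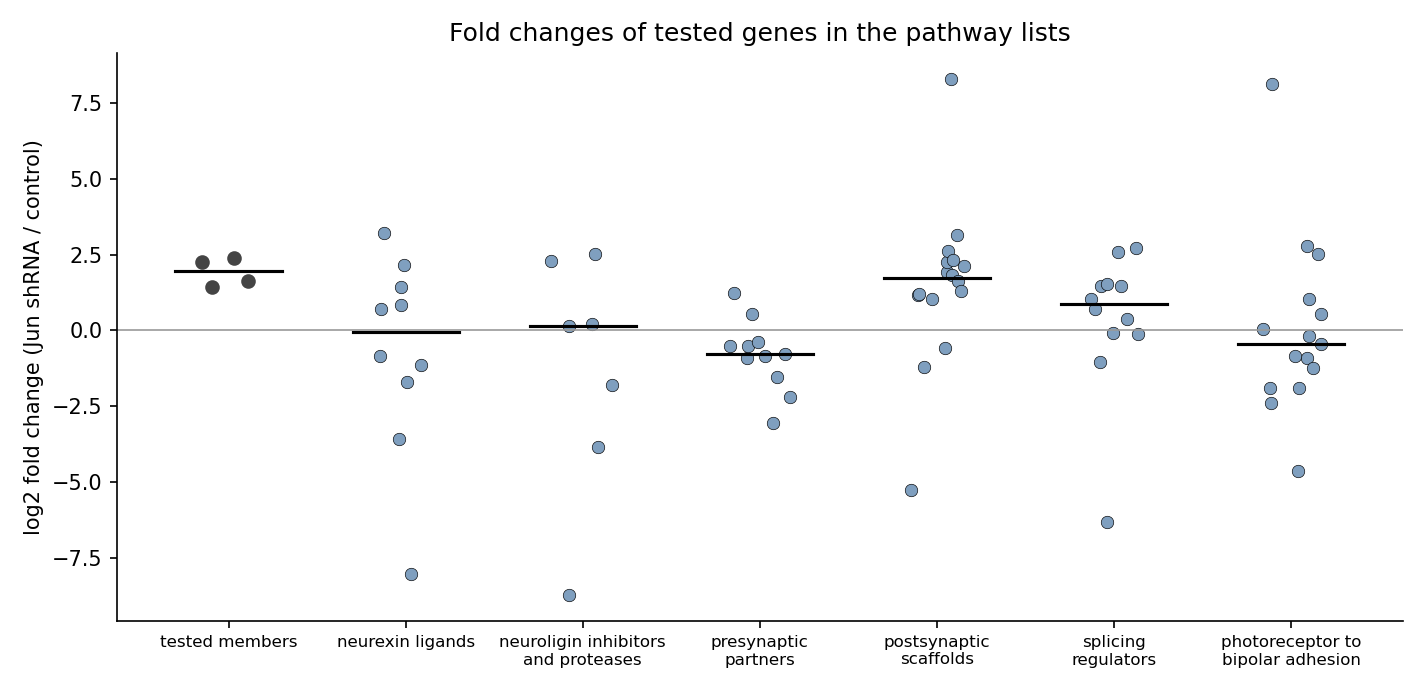
Fitted log2 fold changes (Jun shRNA over control) of the 4 tested members and of the tested genes in each of the 6 partner lists. Each point is 1 gene, and each bar the median. The medians of the lists run from -0.77 for presynaptic partners to 1.74 for postsynaptic scaffolds.

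The genes whose log2 CPM ran most like each member over the 6 libraries were found among 8456 genes averaging at least 5 CPM. The nearest to Nrxn3 were Ryr2 (Pearson r = 0.997) and Nol8 (r = 0.996), with Ryr2 at 17.1, 11.8 and 26.5 CPM in Jun shRNA libraries, against 0.655, 8.91 and 0.552 CPM in control libraries. Nlgn1 was nearest to Fam171b and Pop7 (both r = 0.980), and Nlgn2 to Rps28 (r = 0.987) and Ndufv3 (r = 0.983). For Nlgn3 these were Wscd1 (r = 0.991) and Lats2 (r = 0.983), and for Nrxn2 Snrnp25 (r = 0.986) and Cox19 (r = 0.983). With 6 libraries, of which the 3 of a group share their depth class, 54 genes had an r over 0.95 with Nrxn3 and 4 with Nrxn2, and the likenesses are given as a description.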

How the data were processed

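RNA of sorted rods was made into full-length cDNA with SMART-seq v4 and into Nextera XT libraries, per the labels' protocols, with no strand-marking step stated. The authors deposited estimated counts per gene and per transcript and a normalised table. Per the submitters' processing notes the tools were Trimmomatic 0.39, kallisto 0.44.0 and edgeR 3.28.1. The genome build was not given in the sources used here. In the other table, the deposited normalised signal equals the gene counts divided by 1 factor per library, with column sums of 1250540 to 2385208. No sample column was left unused. Of the genes, 51336 matched GENCODE vM21, and of the transcripts 98.5%.

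Rounded estimated counts that passed filterByExpr were TMM-scaled. The quasi-likelihood test of edgeR 4.0.16 under R 4.3.3, with group as the sole term, then covered 12815 genes or 20706 transcripts, with Benjamini-Hochberg adjustment and a threshold of 0.05. Levels are TMM-normalised CPM. Standard errors are log2 fold changes divided by the square root of F. The functions were tested on simulated counts. Alternatives were other scalings and filters, DESeq2 1.42.0, limma-voom and limma-trend (limma 3.58.1, log2 of the deposited signal plus 0.5 or 2), thinning to the smallest total, a replicate block, another threshold and leaving out each library. Members and lists were chosen with earlier results of these data known. Named were all members, Jun, from each partner list the genes past the threshold or else the 3 with the smallest p, marker genes by level or call, and transcripts averaging at least 1 CPM in a group; Lhx1, Sncg and the transcripts under 1 CPM were named after their values were seen, and the minimum of 20 counts for a share was set then too. Some genes that this rule names in the partner lists are not reported here. Each likeness is a Pearson correlation of log2 CPM with a prior count of 2.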

Additional observations from a re-analysis of the deposited data

How the results depend on the processing

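No member gene passed the threshold in any alternative that was run (0 in each, with edgeR, DESeq2, limma-voom and limma-trend). Member transcripts past the threshold were 0 in the main analysis, 1 at a threshold of 0.1, 1 without the filter on low counts, and 2 with the 10-count filter, DESeq2 or limma-voom, and 0 with any 1 library left out. These counts followed the tool and the filter; the cause was not tested. Partner genes past the threshold were 1 in the main analysis and 0 with median of ratios scaling, upper quartile scaling, library totals, thinning or the replicate block. They were 3 at a threshold of 0.1 or with the 10-count filter, 2 without a filter or with limma-trend on the signal plus 2, 4 with limma-voom or limma-trend on the signal plus 0.5, and 12 with DESeq2, and ranged from 0 to 1 with 1 library left out. Directions turned for Nrxn2 (0.10 and 0.14 without Jun shRNA library 1 or 2, from -5.02 to 0.14 with 1 library left out), Nrxn3-204 (0.06 with upper quartile scaling, 2.17 with limma-voom, 2.94 with the replicate block, and from -1.45 to 3.64 with 1 library left out), Dag1 (from -0.35 to 3.75) and Cask (0.62 with limma-voom, 0.99 with the replicate block, from -3.58 to 2.73 with 1 library left out, and 0.00 with limma-trend on the signal plus 0.5).

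The median log2 fold change of genes under 50 kb was -0.15 with median of ratios, 0.09 with upper quartile, 0.20 with library totals, -0.11 without a filter, 0.36 with DESeq2, -0.06 when thinned, and -0.51 and -0.43 with limma-trend, and ran from -0.44 to -0.13 with 1 library left out. For genes of 50 to 200 kb it was 0.74 with upper quartile, 0.85 with library totals, 0.56 with DESeq2, 0.62 when thinned and 0.12 with limma-trend plus 2, and 0.16 to 0.55 with 1 library left out. For genes of 200 kb or more it was 1.11 with upper quartile, 1.23 with library totals, 1.00 with limma-voom, 0.95 with the replicate block, 1.02 when thinned and 0.46 with limma-trend plus 2, and 0.32 to 1.04 with 1 library left out.

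Deviations of same-numbered libraries correlated at 0.000493, 0.00813 and -0.0148, so no deviation shared by number was seen. The labels state no pairing, and these correlations cannot tell whether the libraries were prepared in pairs. With the replicate block the Nrxn3 log2 fold change was 3.54 (edgeR adjusted p = 0.276), that of Nrxn3-209 was 6.44 (adjusted p = 0.253), and 0 member genes and 0 member transcripts passed. The shallower Jun shRNA libraries and the low counts of Nrxn2, Nlgn2 and Nlgn3 limit what differences could be detected. The full-length shares of Nrxn3 and Nlgn1 and the family shares of Nrxn3, Nlgn1, Nlgn2 and Nlgn3 moved by less than the spread between libraries in the alternatives run for them. The shares of single forms, noncoding forms and inserts were not recomputed.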
